A study of Mus musculus with 22 samples.

Results

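The cytosolic ribosomal protein (RP) genes, which encode the protein part of the ribosome, were followed across social rank, cage and sequencing table in the mouse brain. Members were the rows of the count tables whose symbol begins with Rpl or Rps followed by a number, together with Rplp0, Rplp1, Rplp2 and Rpsa. Kinases named Rps6k and names that contain -ps, which mark pseudogenes, were left out. This gave 88 of 24421 genes, of which 77 are the core RP genes and 11 are paralogues, retrogenes or genes that only carry a similar name. Core genes with other names, such as Fau, fell outside the rule. All samples were right brain hemispheres of group-housed mice of the strain C57B6/J OlaHsd, with no added genotype or treatment. Rank came from the tube test, in which cage mates push each other out of a narrow tube. In the study's methods, mice were tested at an age of 10 to 12 weeks and killed some days after their rank was assessed. There were 7 dominant and 7 submissive males from 7 cages, and 4 dominant and 4 submissive females from 4 cages, with 1 mouse of each rank per cage and 1 library per mouse. Both mice of a cage carry the same replicate number, and cages are called here by sex and that number. Rank describes an order within a cage of 4, so a dominant mouse of a given cage need not outrank the submissive mouse of another. According to the study's methods, some females of intermediate rank were regrouped and tested again. The library names mark female cages 1 and 2 by a number, like the male cages, and female cages 3 and 4 as Gr1 and Gr2, and the labels do not say whether Gr1 and Gr2 are such regrouped cages. Males and females were counted in separate tables, and library names start with um_endres in males and jgu_gerber in females. Sex, name prefix and table therefore cannot be told apart. What the prefixes stand for is not given in the sources used here.

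A ribosome has a small subunit, which reads the mRNA, and a large subunit, which joins amino acids. Rps genes encode proteins of the small subunit and Rpl genes proteins of the large subunit, while Rplp0, Rplp1 and Rplp2 form the stalk that recruits elongation factors. The proteins are needed in matched amounts, and many of their mRNAs start with a terminal oligopyrimidine tract, a C followed by an unbroken run of C and T, through which mTOR signalling and the RNA-binding protein Larp1 adjust their translation. In neurons, RP mRNAs are translated in the cell body and also in axons and dendrites.

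The tract is the sequence feature best known to be shared by these genes, and the starts of 7 members that appear in the results are shown for that reason. Each line gives 15 bases before and 15 bases from the start of the transcript in RefSeq (build GRCm38.p6), 5′ to 3′ on the strand of the gene, so that the last 15 bases belong to the first exon. Capitals mark the pyrimidine run that begins at the start.
Rplp2, chr7:141447636-141447665, plus strand: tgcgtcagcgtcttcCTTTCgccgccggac
Rpl38, chr11:114668565-114668594, plus strand: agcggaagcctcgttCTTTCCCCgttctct
Rps21, chr2:180257364-180257393, plus strand: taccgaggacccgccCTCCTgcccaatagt
Rpl15, chr14:18270972-18271001, minus strand: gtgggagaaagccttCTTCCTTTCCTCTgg
Rps18, chr17:33955651-33955680, minus strand: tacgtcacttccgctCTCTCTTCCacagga
Rps6, chr4:86857353-86857382, minus strand: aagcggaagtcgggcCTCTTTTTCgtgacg
Rps27, chr3:90213634-90213663, minus strand: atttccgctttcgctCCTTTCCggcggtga

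RefSeq promoter entries were found for 67 members. A C at the start followed by at least 4 further pyrimidines, read on the strand of the gene only, was present in 14 of them (20.9%), against 484 of 17224 genes of the count tables with an entry (2.81%). The other entries, those of Rpl24 and Rpl13a among them, do not hold these letters at the annotated start. The longest run among the starts shown was 13 bases in Rpl15.

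Libraries held between 12403943 and 16488762 counted reads, so that the floor of 3 counts corresponded to 0.180 to 0.241 CPM, the count scaled to a common library size. Sizes were set with edgeR's trimmed mean of M-values (TMM). Of the 88 members, 81 passed the filter on low counts in both tables and 74 of these were core genes. Replicates of every group differed by more than sampling noise (chi-square per gene between 1.66 and 13.4). Neuronal, astrocyte, oligodendrocyte and microglial markers were present in every group. The floor of 3 counts covers counting error only. In bulk tissue, fewer cells of a type and less RNA per cell cannot be told apart.

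RP mRNAs differed widely in level. Per kilobase of exon, the stalk gene Rplp1 was highest with a mean of 727 CPM per kilobase over the 22 samples, followed by the small-subunit gene Rps21 with 491 and the large-subunit gene Rpl9 with 452. Among the 73 core genes that share at most 50% of their exon bases with another row, the median was 165 CPM per kilobase, the lowest was Rps15a with 33.2, and the range was 21.9-fold. The value of Rps15a rests on a listed exon length of 5134 bases, the longest of all members, and without regard to length it had 171 CPM. Not scaled by length, Rpl4 had the most reads of these 73 genes with 484 CPM and Rps16 the fewest with 26.0 CPM.

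**Figure D1:**
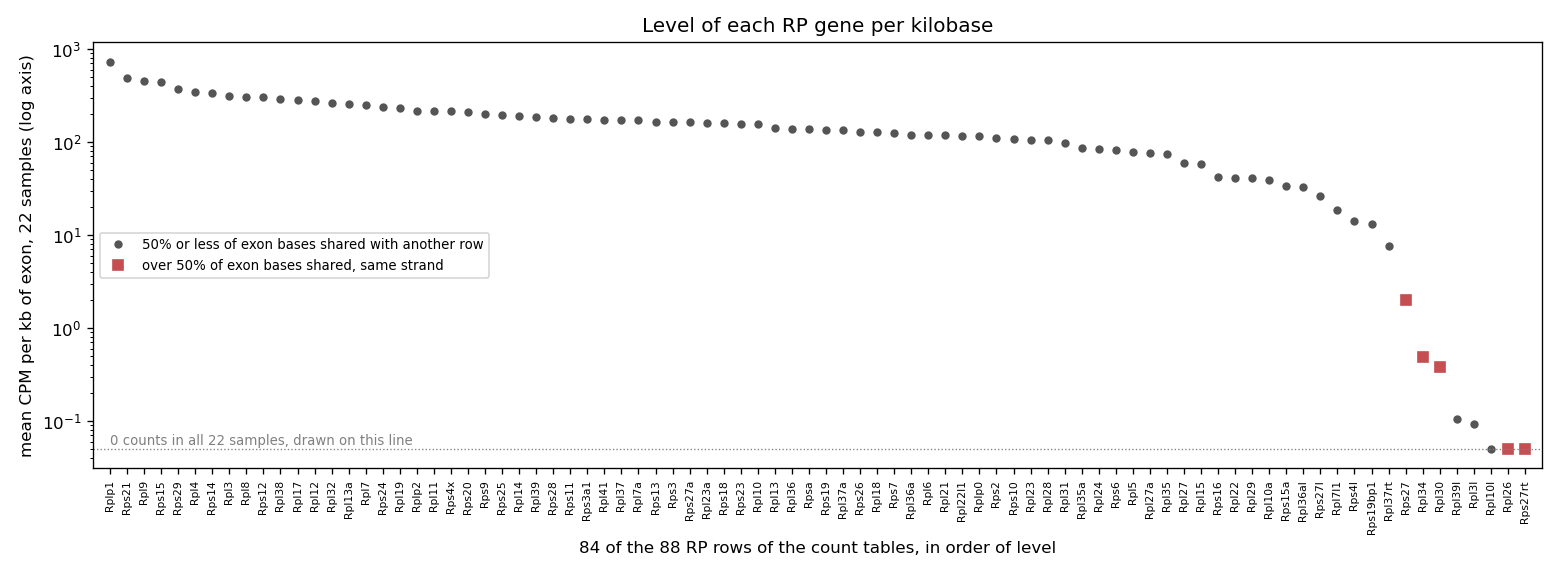
Mean CPM per kilobase of exon over 22 samples on a log axis for 84 of the 88 RP rows, ordered by level. Red squares mark the 5 rows with over 50% of their exon bases shared with another row of the same strand, and 3 rows with 0 counts are drawn on the dotted line. The squares sit at the low end, from 2.01 CPM per kilobase in Rps27 downwards.

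The core genes Rpl26, Rpl30, Rpl34 and Rps27, stood apart at the low end. Rpl26, a large-subunit protein gene, had 0 counts in all 22 libraries. Rpl30 had between 0 and 7 counts per library and Rpl34 between 2 and 13, so these 3 core genes did not pass the filter. Rps27 had 8 to 28 counts (mean 1.16 CPM) and passed. All 4 overlap another row on the same strand. Of the exon bases of Rpl26, 520 of 543 (95.8%) are also listed for Gm15772, of those of Rpl30, 476 of 626 (76.0%) for Gm12191, of those of Rpl34, 413 of 689 (59.9%) for Rpl34-ps1, and of those of Rps27, 345 of 575 (60.0%) for Rps27rt. Each of these partner rows also had 0 counts in every library. That leaves 23, 150, 276 and 230 unshared exon bases, in the same order, and the counts of these 4 genes are not read as their levels here. Whether reads that fall on more than 1 row were discarded is not given in the sources used here, and the part of the overlap in these values was not tested. Rps27rt is placed on chromosome 3 by the count tables, inside Rps27, and on chromosome 9 by RefSeq.

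RP genes have many processed pseudogenes, copies of their mRNA inserted elsewhere in the genome. For 86 members with a transcript in GENCODE vM21, the share of 85-base stretches, the length of a read, that also occur in a transcript of another gene had a median of 36.3%. In 31 members it was 50% or more, with 91.9% in Rpl5 and 86.8% in Rpl35, and in 6 members, Rps3 among them, it was 0%. The share is not limited to pseudogenes, as genes that overlap a member also count. The gene with most shared stretches was Wdr38 for Rpl35 and Tbc1d8 for Rpl31. Across the 79 passing members with a value, this share and CPM per kilobase had a Spearman correlation of -0.11, a description over genes measured in the same libraries. Levels of the members with many copies are uncertain, since reads could be split or dropped between copies. On the opposite strand, 47.7% of the exon bases of Rpl5 lie under Fam69a and 33.1% of those of Rpl31 under Tbc1d8, and the strand setting of the counting is not given in the sources used here although the library kit keeps strand.

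The members together took about 1% of all counted reads. Their share was 1.06% ± 0.0675 in dominant males (SD, n = 7, lowest 0.943%, median 1.06%, highest 1.13%) and 1.04% ± 0.0517 in submissive males (n = 7, lowest 0.973%, median 1.02%, highest 1.124%). In dominant females it was 1.04%, 1.07%, 1.03% and 1.04% in female cages 1, 2, 3 and 4 (mean 1.05% ± 0.0171, SD, n = 4). In submissive females of the same cages it was 1.08%, 1.09%, 1.10% and 1.10% (mean 1.10% ± 0.00884, n = 4). All 4 submissive females lay above all 4 dominant females, while the male groups overlapped over most of their range. Because the members include reads of 11 further genes, the share was also taken over the core genes. It was then 1.03%, 1.06%, 1.02% and 1.02% in dominant females and 1.07%, 1.08%, 1.09% and 1.08% in submissive females of cages 1, 2, 3 and 4, again without overlap, with means of 1.04% in dominant and 1.02% in submissive males.

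**Figure D2:**
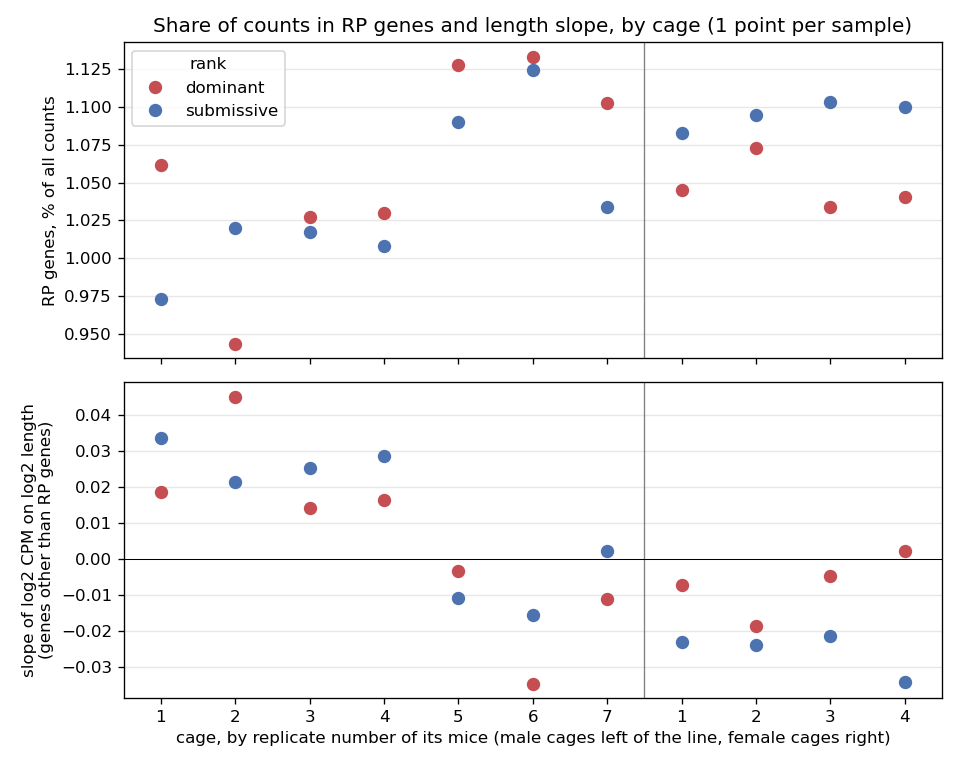
Upper panel: percent of all counted reads on the 88 RP genes, 1 point per sample, by cage and rank. Lower panel: slope of log2 CPM on log2 exon length over genes other than RP genes in the same samples. Female cages show the submissive mouse above the dominant mouse in RP share and below it in slope in 4 of 4 cages, and male cages 5 and 6 have the highest shares.

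RP mRNAs varied together between individual males. After removing group means, the correlation between members over the 14 male samples had a median of 0.754 over 3240 pairs of genes, and 78 of 81 members correlated positively with the mean of the rest, from Rps27l at -0.338 to Rps3 at 0.979. Over the 8 female samples the median was 0.154 and 67 of 81 members were positive. These are descriptions of genes measured in the same libraries, which share depth and length bias. Apart from Rps27, whose few counts are not read as a level (SD 0.423), the SD of log2 CPM over the 22 samples was highest in Rps4l (0.217, mean 13.5 CPM), Rpl37rt (0.202, 5.76 CPM), Rps16 (0.162, 26.0 CPM) and Rplp2 (0.153, 95.5 CPM), and lowest in Rpl10a (0.0492, 32.5 CPM).

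The first question of the design was whether RP genes differ with rank in females. Values were slightly lower in dominant than in submissive females in most of the family, by a median log2 fold change of -0.049, or -0.0089 with the offset for length described further on, and no member passed the test. With edgeR's quasi-likelihood test and Benjamini-Hochberg adjustment at 0.05, 0 of 81 members were called, against 0.0942% of the 14865 genes tested (0.074% higher and 0.0202% lower in dominant females). At an unadjusted p under 0.05 there were 15 members (18.5%), against 10.5% of all genes, and all 15 were lower in dominant mice, against 4.08% of all genes with such a p in that direction. DESeq2 gave 9 members unadjusted, against 6.88% of genes in either direction, and 0 adjusted, against 0.518%. The unadjusted count was 8 without the dominant female of cage 3, against 7.64% of genes, and 2 when all 22 samples shared 1 fit, against 3.80%. It was 21 without the dominant female of cage 2, against 12.2%, and 25 of 73 members with a mean count of at least 500, against 14.7%. With cage mates paired in a replicate block it was 11 (13.6%), against 10.3% of genes. The log2 fold change (dominant over submissive) was below 0 in 77 of 81 members, against 50.9% of all genes. Its median was -0.049 over the members and -0.0020 over all genes, with a range from -0.25 to 0.11. In 12 members every dominant female lay below every submissive female, against 2.29% of all genes, and in 0 members above, against 3.38%. These shares are not matched for length. Of genes other than RP genes from 500 to 1000 bases, 66.8% had a log2 fold change below 0.

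Rpl13a, a large-subunit protein gene often used as a reference in quantitative PCR, had the smallest p. It had 250, 261, 249 and 253 CPM in the dominant females of cages 1, 2, 3 and 4. In the submissive females of those cages it had 273, 274, 272 and 271 CPM. The groups did not overlap. This gave a log2 fold change of -0.11 (SE 0.0288, adjusted p = 0.161 with edgeR's quasi-likelihood test). The exact permutation test over samples gave p = 0.0286, the smallest value that 4 against 4 samples allow. That test shuffled samples without keeping cage mates paired. Its p was not adjusted for the number of members, and every member without overlap had the same value.

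Rpl24, which lies at the surface of the large subunit, had 53.5, 56.98, 52.3 and 54.3 CPM in dominant females and 62.6, 59.2, 57.7 and 61.3 CPM in submissive females, in the same order of cages. Every dominant value was below every submissive value, with a log2 fold change of -0.15 (SE 0.0430, adjusted p = 0.181 with edgeR), and 80.6% of its 85-base stretches occur in another gene.

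Rps16, a small-subunit protein gene, had the largest difference with 20.0, 23.1, 24.3 and 26.3 CPM in dominant females and 26.2, 31.2, 25.8 and 27.7 CPM in submissive females. The dominant female of cage 4 lay within the submissive range, so the groups overlapped. The log2 fold change was -0.25 (SE 0.0774, adjusted p = 0.230 with edgeR).

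Among the other members without overlap were the stalk genes Rplp0 (log2 fold change -0.057) and Rplp2 (-0.10), the large-subunit genes Rpl3 (-0.077), Rpl4 (-0.059), Rpl8 (-0.083) and Rpl19 (-0.060), and the small-subunit genes Rps10 (-0.095), Rps25 (-0.072) and Rps26 (-0.083). These were named after their values were seen. The stalk gene Rplp0, also a common reference gene, had 157, 160, 160 and 158 CPM in dominant females and 161, 162, 163 and 172 CPM in submissive females, a narrow gap between the groups. The members with values above 0 were Rpl37rt (0.11), Rpl27a (0.027), Rpl15 (0.013) and, from 8 to 28 counts per library, Rps27 (0.010), with adjusted p from 0.815 to 0.991.

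The subunits gave like values. In females the median log2 fold change was -0.050 over 40 core large-subunit genes (38 below 0), -0.057 over the 3 stalk genes (3 below 0) and -0.049 over 31 core small-subunit genes (30 below 0). It was -0.058 over 27 members with under 25% of their stretches in other genes (27 below 0) and -0.043 over 29 members with 50% or more (28 below 0). Differences between these classes were not tested.

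In males the same comparison gave no called member. By edgeR's quasi-likelihood test 0 of 81 were called, against 0% of 14737 genes, and 0 members had an unadjusted p under 0.05, against 1.32% of all genes; DESeq2 also gave 0 and 0, the latter against 0.807%. The log2 fold change was above 0 in 75 members, against 48.6% of all genes, with a median of 0.027 over the members and -0.0015 over all genes and a range from -0.033 to 0.14. Single libraries moved this median. It was 0.054 without the dominant male of cage 2 (79 members above 0, 5 with an unadjusted p under 0.05 against 2.28% of genes) and 0.049 without the submissive male of cage 6. Without the dominant male of cage 5 it was 0.011 (60 above 0), and without the dominant male of cage 6 or the submissive male of cage 1 it was 0.014. In no member did the rank groups separate, and over all genes 0.00679% separated with dominant males below.

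Rpl39 and Rps4l were among the members with the smallest p in males. Rpl39, an X-linked large-subunit gene, had a lowest, median and highest value of 62.0, 73.4 and 78.7 CPM in dominant males and 66.4, 66.8 and 77.9 CPM in submissive males, with a log2 fold change of 0.073 (SE 0.0504, edgeR adjusted p = 1.00). Rps4l, a retrogene copy of Rps4x, had 9.55, 13.9 and 17.5 CPM in dominant and 11.1, 12.7 and 14.5 CPM in submissive males (log2 fold change 0.14, SE 0.102). Below 0, the smallest p belonged to Rpl27 (-0.032), Rps27l (-0.032) and Rpl35 (-0.033).

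Rank effects in the 2 tables had opposite signs for most members, but the difference between them passed the test in none. In the interaction fit of edgeR, 0 of 81 members were called, against 0% of 15233 genes, and 4 had an unadjusted p under 0.05, against 3.32% of genes; DESeq2 gave 0 and 4, the latter against 2.80%. There were 15 without the dominant male of cage 2, against 5.16% of genes, and 9 without the submissive male of cage 6, against 4.15%. With cage mates paired in a replicate block there were 10 (12.3%), against 6.90% of genes, and 0 called. The estimate (effect in females minus effect in males) was below 0 in 78 members, against 47.4% of all genes, with a median of -0.072 over the members and 0.0067 over all genes. With the offset for length the median was -0.034, 66 members were below 0, against 50.4% of genes, and 5 had an unadjusted p under 0.05, against 3.09%. The smallest p belonged to Rpl24 (-0.19, SE 0.0693), Rps16 (-0.30, SE 0.124) and Rpl13a (-0.14, SE 0.0647), all with an adjusted p of 0.999. Above 0 lay Rpl37rt (0.059), Rpl15 (0.016) and Rpl27 (0.0060).

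Cage mates of different rank can be compared directly, as both came from the same cage. Averaged over the 81 passing members, log2 CPM was lower in the dominant female in 4 of 4 cages, with differences of -0.035 in cage 1, -0.031 in cage 2, -0.081 in cage 3 and -0.047 in cage 4. Cages 3 and 4, named Gr1 and Gr2 in the libraries, thus had the larger differences, and with 2 cages of each kind of name this was not tested. The number of members lower in the dominant female was 59, 49, 71 and 70 of 81 in these cages, so that 22, 32, 10 and 11 members were higher, against 49.2%, 52.7%, 50.7% and 48.7% of all genes. In males the dominant mouse was higher in 6 of 7 cages, with 0.12 in cage 1, 0.0051 in cage 3, 0.021 in cage 4, 0.060 in cage 5, 0.0090 in cage 6 and 0.072 in cage 7, and lower in cage 2, with -0.11. The number of members higher in the dominant male was 74, 5, 45, 46, 70, 39 and 70 of 81 in male cages 1 to 7, against 47.4% to 52.0% of all genes. Cages 1, 5 and 7 thus had most members higher, cage 2 most lower, and cages 3, 4 and 6 were near an even split. The dominant male of cage 2 had the lowest RP share of all samples.

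**Figure D3:**
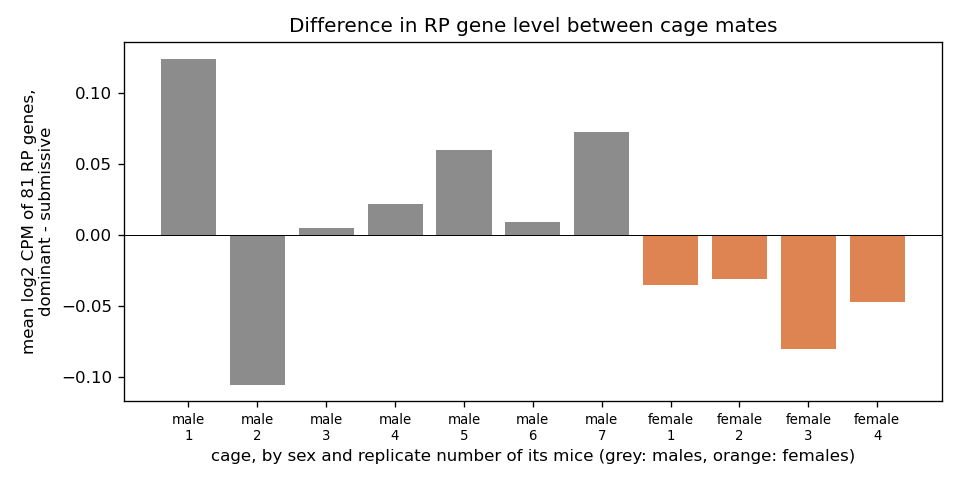
Dominant minus submissive mouse in the mean log2 CPM of 81 RP genes, 1 bar per cage, males grey and females orange. The 4 female bars lie below 0, between -0.031 and -0.081, and 6 of 7 male bars lie above 0.

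Among males the RP share differed between cages. Cages 5 and 6 had mean shares of 1.11% and 1.13%, cage 7 had 1.07%, and cages 1 to 4 lay between 0.982% and 1.02%. Of the variation of the members' mean log2 CPM between the 14 males, 76.3% lay between cages (6 of 13 degrees of freedom), and of that between the 8 females 15.8% (3 of 7 degrees of freedom). In the edgeR test for any difference between cages, 0 of 81 members were called in males, against 5.89% of 14737 genes, and 30 members had an unadjusted p under 0.05 (37.0%), against 22.3% of genes; DESeq2 gave 0 called, against 6.53% of genes, and 16 unadjusted, against 12.6%. In females 0 of 81 were called, against 0.074% of genes, and 0 members had an unadjusted p under 0.05 against 5.11%; DESeq2 gave 0 called. When cage 1 was left out, 14 members were called in males (17.3%), against 12.5% of genes, and when any other male cage was left out, 0, against 2.54% to 5.04%. The unadjusted count was 53 members without cage 1, against 28.4% of genes, and 9 without cage 5 or without cage 6, against 19.4% and 17.6%. The smallest adjusted p in males was that of Rps4l at 0.0804, followed by Rpl13a at 0.0837 and Rpl36 at 0.0943. In females Rps16 and Rpl7l1 were among the members with the smallest p, each with an adjusted p of 0.999. After a trend on length was removed in each sample, 3 members (3.70%) had an unadjusted p under 0.05 in males, against 17.7% of genes.

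RP mRNAs are short, and the log2 fold changes of all genes depended on length. The exon length of the members had a median of 717.5 bases (327 to 5134), and 68 of 88 (77.3%) were under 1000 bases, against 6.74% of all genes that passed in both tables, whose median was 3001 bases. In females, the median log2 fold change of genes other than RP genes was -0.029 under 500 bases, -0.041 from 500 to 1000, -0.032 from 1000 to 2000, -0.0094 from 2000 to 4000, 0.022 from 4000 to 8000 and 0.064 from 8000 bases. Members in the first 3 of these bins had medians of -0.045, -0.049 and -0.060. Across the 14784 other genes, length and log2 fold change had a Spearman correlation of 0.271, a description over genes.

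The size of the female RP difference was close to that of other genes of the same length. A lowess curve through the other genes had a median value of -0.043 at the lengths of the members, and the median difference of the members from the curve was -0.0070, with 49 below and 32 above. When the curve of each sample was used as an offset in edgeR, the median log2 fold change of the members was -0.0089, 53 of 81 were below 0, against 51.4% of all genes, and 3 (3.70%) had an unadjusted p under 0.05, against 7.52%. Rpl13a then had -0.070 (adjusted p = 0.524 with edgeR), Rpl24 -0.11 (0.499) and Rps16 -0.21 (0.524).

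In males the trend ran the other way and was weaker, with a correlation of -0.147 over 14656 genes. The curve had a median of 0.0067 at the lengths of the members, and the median difference of the members from it was 0.022, with 72 above and 9 below. With the offset, the male median of the members was 0.021, and 9 were below 0, against 49.3% of all genes.

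Per sample, the slope of log2 CPM on log2 length over other genes ran from -0.019 to 0.0024 in dominant females and from -0.034 to -0.021 in submissive females, without overlap. In males it ran from -0.035 to 0.045 over both ranks. The difference in slope between cage mates had the opposite sign to the difference in RP level in 4 of 4 female cages and in 6 of 7 male cages, the exception being male cage 5. Slope and RP level were read from the same libraries, and apart from male cage 5 they moved in opposite directions between cage mates. The source of the slope in these libraries was not tested.

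**Figure D4:**
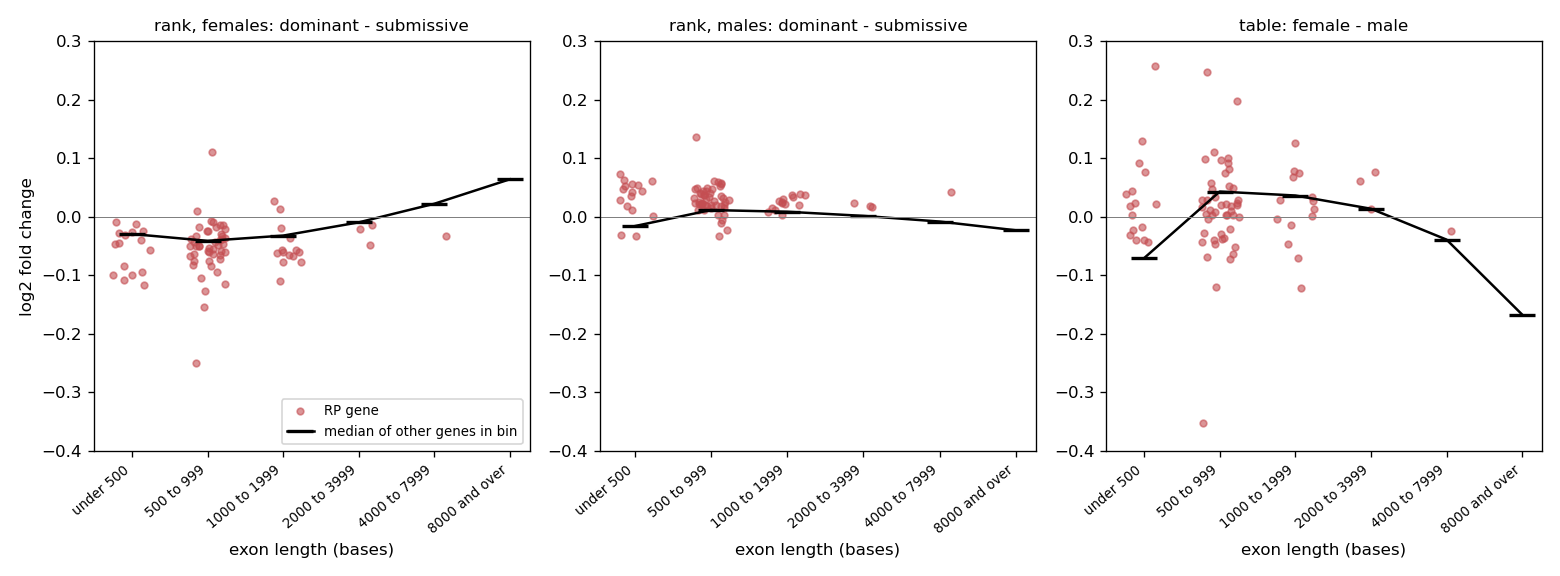
Log2 fold change of each RP gene (red points, placed within its bin of exon length with random horizontal shift) and the median of other genes in the bin (black bars joined by a line), for rank in females, rank in males and the table. In females the median of other genes goes from -0.029 in the shortest bin to 0.064 in the longest, and most RP genes lie near or below it.

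Between the tables, a minority of RP genes differed, mostly higher in females, or mostly lower once length was taken into account. With rank in the model, edgeR called 12 of 81 members (14.8%), against 36.5% of 15233 genes, 10 higher in the female table, against 18.6%, and 2 lower, against 17.9%. With an offset for length it called 19 (23.5%), against 35.5% of genes, 6 higher, against 18.3%, and 13 lower, against 17.3%. The median log2 fold change (female over male) was 0.017 over the members and 0.00021 over all genes. Among the higher members were the stalk gene Rplp2 (0.26), the ribosome-linked but not ribosomal Rps19bp1 (0.25), the small-subunit genes Rps2 (0.20), Rps9 (0.11) and Rps24 (0.10), and the large-subunit genes Rpl38 (0.13), Rpl23 (0.13), Rpl9 (0.092) and Rpl4 (0.078). Rpl13 of the large subunit was lower, at -0.12.

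Rplp2 had 81.6, 89.9 and 99.2 CPM (lowest, median, highest) in dominant males and 82.4, 85.9 and 96.0 CPM in submissive males. It had 106, 104, 99.0 and 104 CPM in dominant and 109, 107, 111 and 114 CPM in submissive females. The lowest female value lay just under the highest male value and all other female values lay above it, at a log2 fold change of 0.26 (SE 0.0360, adjusted p = 2.63e-06 with edgeR).

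Rps19bp1, which encodes a regulator of the deacetylase SIRT1 that binds RPS19, was the only member with every female above every male, against 4% of all genes. It had 9.55, 10.2 and 10.9 CPM in dominant and 8.86, 10.4 and 10.9 CPM in submissive males. In dominant females it had 11.3, 11.3, 12.98 and 12.4 CPM and in submissive females 11.9, 12.7, 11.96 and 12.4 CPM. The log2 fold change was 0.25 (SE 0.0459, adjusted p = 1.16e-04 with edgeR).

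Rps2, of the small subunit, had 85.2, 108 and 117 CPM in dominant and 95.7, 99.4 and 109 CPM in submissive males, and between 114 and 123 CPM in the 8 females, so the sexes overlapped slightly (log2 fold change 0.20, SE 0.0440, edgeR adjusted p = 8.00e-04). Rpl23 had 104 to 116 CPM in dominant males, 103 to 114 CPM in submissive males and 114 to 126 CPM in females (0.13, SE 0.0259, adjusted p = 3.63e-04).

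Rpl13 went the other way, with 99.5, 116 and 128 CPM in dominant males, 104, 110 and 124 CPM in submissive males, 101, 106, 97.4 and 102 CPM in dominant females and 111, 110, 106 and 110 CPM in submissive females. The male and female ranges overlapped (log2 fold change -0.12, SE 0.0399, edgeR adjusted p = 0.0196). Rpl6, at -0.070, missed the threshold with an adjusted p of 0.0514.

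**Figure D5:**
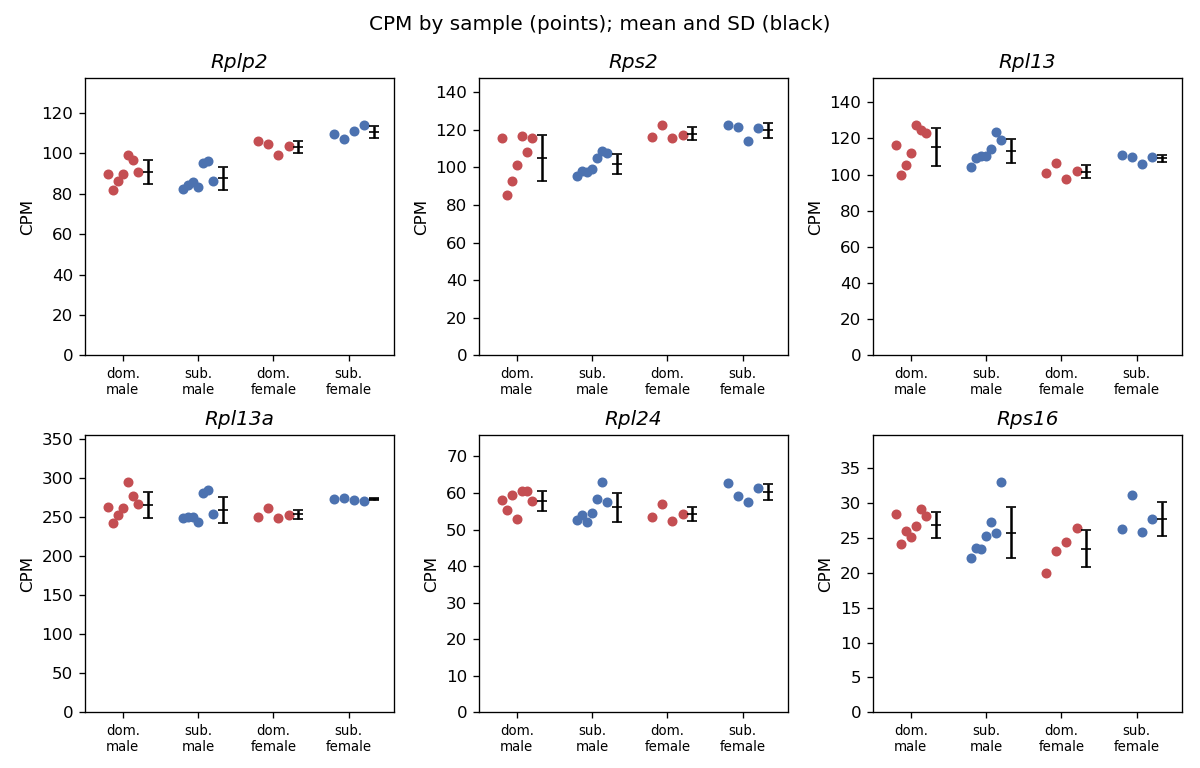
CPM of 6 RP genes in every sample (points) with the mean and SD of each group (black), axes starting at 0. Rplp2 and Rps2 are higher in the female table, Rpl13 is lower there, and Rpl13a and Rpl24 are lower in dominant than in submissive females without overlap.

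The direction of the table difference changed when length was taken into account. With the length curve as an offset, the 19 called members had 8 in common with the 12 called without it, and the median of the members was -0.029. Rplp2 (0.22), Rps19bp1 (0.20), Rps2 (0.15), Rpl38 (0.11) and Rpl23 (0.073) stayed higher and Rpl13 (-0.17) lower with the offset, each past the threshold, and Rpl6 (-0.12) passed it then. Rps9 also stayed called (0.063), while Rps24 (0.049, adjusted p = 0.0855 with edgeR), Rpl9 (0.044, 0.128) and Rpl4 (0.029, 0.363) were no longer called. The median without the offset was also near 0 and took values from -0.0031 to 0.015 when 1 sample at a time was left out.

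Markers of several cell types were also compared between the tables, where 36.5% of all genes were called and 49.9% were below 0. Of the 5 neuronal markers all were above 0 in females (median log2 fold change 0.10) and 2 were called by edgeR, and their summed CPM ran from 3514 to 4119 in dominant males, 3526 to 3929 in submissive males, 4295 to 4506 in dominant females and 4263 to 4376 in submissive females, so the sexes did not overlap. The 5 cerebellar markers were also all above 0 (median 0.31, 2 called), with sums of 172 to 814, 516 to 779, 656 to 875 and 628 to 943 CPM in the same order of groups. Without the dominant male of cage 1, which had the lowest cerebellar sum, 12 members were called between the tables. Oligodendrocyte markers had a median of -0.12 (2 of 4 called) and the 1 red cell marker tested had -0.72 and was called. Of the other markers, 2 of 4 for microglia, 1 of 4 for astrocytes, 1 of 4 for choroid plexus and 0 of 4 for endothelial cells were called, with medians of -0.0051, -0.037, 0.13 and -0.067. The part of these cell types in the RP differences was not tested.

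The 4 X-linked members showed no common shift between the tables. These are Rpl10, Rpl36a and Rpl39 of the large subunit and Rps4x of the small subunit, and their log2 fold changes were -0.037, 0.022, 0.092 and 0.022, with adjusted p of 0.371, 0.648, 0.0572 and 0.643 in edgeR. With the offset for length they were -0.087, -0.017, 0.067 and -0.029 in the same order. Only Rpl10 was then called, with an adjusted p of 0.00695 in edgeR. The genes used as references in expression work gave 0.075 for Rplp0, 0.00072 for Rpl13a and 0.0035 for Rps18, none of them called. Rps6, the subunit protein phosphorylated downstream of mTOR, had 114 CPM on average and log2 fold changes of -0.036 for rank in females, 0.031 for rank in males and 0.033 for the table.

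Of the 11 paralogues, retrogenes and similarly named genes, 7 passed the filter. Rpl7l1, an RPL7-like protein of ribosome assembly, had 48.9 CPM and Rpl22l1, the paralogue of Rpl22, 55.6 CPM. Rpl36al had 17.2, Rps4l 13.5, Rps27l 12.1, Rps19bp1 10.9 and Rpl37rt 5.76 CPM. The muscle paralogue Rpl3l and the testis paralogue Rpl39l had at most 5 and 4 counts in any library, and the testis retrogene Rpl10l and Rps27rt had 0 counts in all. For rank, 6 of the 7 passing genes were above 0 in males and 6 were below 0 in females, as among the core genes.

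Other genes of the translation machinery were taken from fixed lists. For rank, 0 genes of any list were called in either sex by edgeR. Counts in these lists stand against 10.5% of all genes with an unadjusted p under 0.05 and 50.9% below 0 in females, and 1.32% and 51.4% in males. Those shares are not matched for length. In females, 65.5% of genes other than RP genes from 1000 to 2000 bases were below 0, and 55.1% of those from 2000 to 4000 bases. The 77 mitochondrial RP genes serve the separate ribosome of mitochondria. Their median log2 fold change was -0.032 in females (59 of 76 tested below 0, 6 unadjusted, median length 1054 bases). In males it was 0.0079 (34 of 77 below 0, 0 unadjusted). Elongation factors had medians of -0.030 in females and 0.00084 in males over 14 genes (1 and 0 unadjusted), and Eef2, which moves the ribosome along the mRNA, had -0.061 and 0.032. The initiation factor 3 and 4 subunits had -0.019 and 0.011 over 23 genes (4 and 0 unadjusted), and the ribosome biogenesis genes -0.032 and 0.0041 over 39 (2 and 2 unadjusted). Small nucleolar RNA host genes had 0.011 and 0.037 over 14 (1 and 0 unadjusted). The 20 mTOR and Myc regulators, with a median length of 3515 bases, had 0.024 in females (14 above 0, 1 unadjusted) and -0.020 in males (16 below 0, 0 unadjusted). Fau, a small-subunit protein gene, had -0.037 in females and -0.0028 in males.

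Between the tables, against 36.5% of all genes, edgeR called 25 of 77 mitochondrial RP genes (24 higher in females), 8 of 14 elongation factors (7 higher), 11 of 23 initiation factor subunits (9 higher), 14 of 39 biogenesis genes (8 higher), 3 of 14 host genes (1 higher) and 9 of 20 mTOR and Myc regulators (4 higher). Fau was not called, with -0.088 and an adjusted p of 0.0603. Tpt1, whose mRNA carries a terminal oligopyrimidine tract, was higher with 0.15 and Npm1, a nucleolar chaperone, with 0.12. Mtor itself, with an exon length of 8595 bases, was lower with -0.32. Between male cages, against 5.89% of all genes, 2 initiation factor subunits, 2 biogenesis genes and 2 host genes were called and 0 of the other lists; between female cages 0 of any list.

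Markers of other cell types that a hemisphere can hold were read in the same fits. None was called for rank in either sex by edgeR. The 4 choroid plexus markers were all below 0 in females (median -0.27) and all above 0 in males (median 0.18), the same directions as the RP genes, and their summed CPM ran from 676 to 840 in dominant and from 647 to 988 in submissive females, which overlapped. The 4 endothelial markers were all above 0 in females (median 0.084; summed CPM 147 to 180 in dominant and 150 to 165 in submissive females), and neuronal markers were above 0 in 4 of 5 (median 0.028; 4295 to 4506 and 4263 to 4376). Of the 4 red cell markers 3 had 0 counts in all libraries, and the summed CPM was 3.85 to 5.98 in dominant and 2.58 to 3.78 in submissive females. The 5 cerebellar markers were all below 0 in males (median -0.25), and their sum was 172 CPM in the dominant male of cage 1 with a median of 719 and a highest value of 814 over the dominant males, and 516 to 779 in submissive males. The 4 astrocyte markers were all below 0 in males (median -0.038; 2257 to 2930 CPM in dominant and 2381 to 2889 in submissive males) and 2 of 4 were below 0 in females. Oligodendrocyte and microglia markers had medians of -0.0092 and 0.041 in females and -0.013 and 0.0051 in males. Of the 3 pituitary markers 1 passed the filter, at -0.83 in females and 0.39 in males. The pituitary sum was 22.5 CPM in 1 submissive female, with a median of 2.18 over that group and 1.70 to 3.00 CPM in dominant females, and when any 1 submissive female was left out the median of the RP genes lay between -0.047 and -0.058. The part of these cell types in the RP results was not tested.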

How the data were processed

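Right brain hemispheres of 22 mice were sequenced as rRNA-depleted total RNA (stranded kit, single-end reads of 85 nt). Per the submitters' notes and the study's methods, the authors removed adapters (cutadapt 1.15) and low-quality ends (bbduk), aligned to GRCm38 with STAR 2.6.0a and produced gene counts with featureCounts 1.6.2. The strand and multi-mapping settings are not given in the sources used here. The deposited values are raw read counts per gene with an exon length, in 1 table per sex, and 0 columns were left unused.

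Here, counts were tested with edgeR 4.0.16 (R 4.3.3), with TMM scaling, filterByExpr (minimum count 10, minimum total 15), the quasi-likelihood test and Benjamini-Hochberg adjustment over all genes at 0.05. Rank was fitted within each sex, cage as an F test, and the table and its interaction with rank over all 22 samples. Log2 CPM used a prior count of 2. Length trends were lowess curves (span 0.3) over genes other than the members. The fits were tested on simulated data. Alternatives were DESeq2 1.42.0, its size factors, no filter, a mean count of at least 500, length offsets, a replicate block, all samples together and leaving out each sample. Same-numbered mice share a cage, named in the library names, and were killed together. Deviations from group means correlated by 0.158 on average within male cages (-0.0259 to 0.240) and by 0.0211 within female cages (-0.0221 to 0.0471), against -0.0261 and -0.0070 between cages. Named members were, for every fit and sign, the 3 lowest in p, then the 3 highest and lowest per kilobase, paralogues, X-linked, reference and signalling genes and those that failed the filter. The members and lists were chosen with earlier results of these data known. Labels name separate mice, so p-values cover the spread between mice. Protein sequences were not used here, and results of some genes are not reported here.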

Additional observations from a re-analysis of the deposited data

Results flagged for a closer look

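In groups of 4 to 10 samples, the highest or lowest value was compared with the others of its group. The checks included the CPM of 33 named members. Of 140 checks, of which chance gives about 1 in 20, 6 had a sample apart, and 4 of these are given here. Rps18 was lowest in the dominant male of cage 2 with 67.0 CPM, next to 83.1 CPM in the nearest sample, and the same mouse had the lowest RP share. Rpl36 was highest in the submissive male of cage 6 with 68.7 CPM, next to 58.0 CPM. The dominant female of cage 1 was highest in Rpl39 with 81.6 CPM, next to 74.2 CPM, and in Rps21 with 192 CPM, next to 180.2 CPM.

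Rows of RP pseudogenes were outside the members, and 2 of 7 lay above the floor of 3 counts in all 22 libraries. Rps19-ps3 had a mean of 2.18 CPM (19 to 46 counts) and Rpl14-ps1 a mean of 1.19 CPM (11 to 24 counts).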

How the results depend on the processing

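No member was called for rank, in either sex or between the tables, under any alternative run. With the length offset fitted outside the members, on all genes, or with the replicate block, the female median log2 fold change was -0.0089, -0.0076 and -0.0093, and 50 members were below 0 with the curve on all genes. The replicate block (mice paired by cage) gave 77 members below 0 in females and a median of -0.050. It lowered the unadjusted members for rank in females from 15 to 11 (13.6%), against 10.3% of genes. It raised those of the interaction from 4 to 10, and changed no call of a member. For the table, both length offsets called 19 members and turned the median to -0.029 and -0.027. Leaving out 1 sample at a time gave 10 to 14 called members and medians from -0.0031 to 0.015, with -0.00027 and -0.0016 without the submissive males of cages 1 and 4 and -0.0031 without the submissive female of cage 2. For cage in males, no filter called 1 member, and leaving out cages gave 0 to 14, the 14 without cage 1. The core share in submissive females was 1.08%. The causes were not tested.

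Among named members, Rpl27 had an interaction of -0.0044 with a mean count of at least 500. Without 1 sample, 20 values near 0 changed sign, with ranges of -0.076 to 0.011 for Rpl35 (rank in males), -0.0098 to 0.029 for Rpl15 (rank in females) and, in the interaction, -0.0065 to 0.040 for Rpl15, -0.024 to 0.040 for Rpl27 and -0.017 to 0.14 for Rpl37rt. Values under about 0.241 CPM lie below the depth of these libraries.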
